A study of Mus musculus with 10 samples.

Results

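The genes described here are 10 members of the mineralization machinery of bone: the phosphatases *Alpl* and *Phospho1*, the pyrophosphate-forming enzyme *Enpp1*, the sphingomyelinase *Smpd3*, the phosphate transporters *Slc20a1* and *Slc20a2*, the osteoblast membrane protein gene *Ifitm5*, and the osteocalcin genes *Bglap*, *Bglap2* and *Bglap3*. They were chosen by symbol for these roles, and all 10 were found among the 23080 genes listed and among the 16267 genes tested. Bulk RNA-seq measured them in the anterior fontanelle (AF), the soft gap between the paired frontal and parietal bones, of mouse embryos at E18.5. Bone was not separated from the connective tissue of the suture, so each level is a mixture of both. In all, 5 libraries are labelled wild type (WT) and 5 are labelled *Wnt1-Cre; Fgfr2fl/fl*. Wnt1-Cre drives recombination in neural crest cells, from which the frontal bone and much of the AF mesenchyme arise, so cells of other origin in the same tissue keep a working *Fgfr2*. The Cre and floxed alleles that the controls carry are not given in the labels, and the study describes littermate pairs, but the labels do not say which libraries form a pair, so litter could not be fitted. Each library was treated as 1 embryo, and if some shared an embryo the p-values would measure technical spread.

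Bone mineral forms when phosphate accumulates outside the osteoblast and in the matrix vesicles it sheds. Tissue-nonspecific alkaline phosphatase, the product of *Alpl*, degrades the mineral inhibitor pyrophosphate and releases phosphate, whereas ENPP1 produces pyrophosphate from extracellular nucleotides. PHOSPHO1 frees phosphate inside matrix vesicles from phosphocholine, which sphingomyelin breakdown by the *Smpd3* product can supply, and SLC20A1 and SLC20A2 carry phosphate across membranes. *Ifitm5* encodes an osteoblast-restricted membrane protein, and osteocalcin is a vitamin K-dependent calcium-binding protein of mature osteoblasts.

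The targeted gene went against a simple reading of the labels. In the WT-labelled libraries *Fgfr2* was measured at 200 (replicate 1), 235, 176, 195 and 192 counts per 1000000 of the library (CPM), and in the KO-labelled libraries at 299, 273, 325, 338 and 357 CPM, so every KO-labelled library was above every WT-labelled one. *Fgfr2* rose by 0.67 on the log2 scale (SE 0.09, adjusted p = 0.0487, edgeR's quasi-likelihood test with Benjamini-Hochberg adjustment). This call was lost when any 1 library other than replicate 2 of either group was left out (adjusted p = 0.0831 to 0.260), while the log2 fold change stayed at 0.63 to 0.75 in all alternatives. A count summed over the whole gene does not separate recombined from intact alleles and cannot check the deletion, so libraries are named below by their label, as WT-labelled or KO-labelled. Library totals ranged from 20774667 to 28515434 counts, and ribosomal RNA genes took 18.7 to 33.6% of them. Neuron marker genes were highest in KO-labelled replicate 2, with a summed level of 442 CPM against 58.3 to 207 CPM in the other libraries. Skeletal muscle markers were highest in WT-labelled replicate 2 (728 CPM) and KO-labelled replicate 1 (717 CPM), against 17.0 to 139 CPM elsewhere.

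The osteocalcin genes are neighbours on chromosome 3 and nearly the same in sequence, which limits how their reads can be assigned. On GRCm38, *Bglap* lies at chr3:88383501-88384464, *Bglap2* at chr3:88377736-88378699 and *Bglap3* at chr3:88368616-88372743, all on the minus strand. Their coding sequences from the GENCODE M21 transcripts are printed 5′ to 3′ to show how few bases tell the genes apart, and the capitals mark the 13 positions at which the sequences are not all the same.
Bglap: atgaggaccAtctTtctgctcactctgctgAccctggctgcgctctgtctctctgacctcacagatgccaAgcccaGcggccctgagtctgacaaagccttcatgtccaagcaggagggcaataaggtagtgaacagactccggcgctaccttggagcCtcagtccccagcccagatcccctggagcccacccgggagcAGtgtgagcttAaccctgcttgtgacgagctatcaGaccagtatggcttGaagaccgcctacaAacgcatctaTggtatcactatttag
Bglap2: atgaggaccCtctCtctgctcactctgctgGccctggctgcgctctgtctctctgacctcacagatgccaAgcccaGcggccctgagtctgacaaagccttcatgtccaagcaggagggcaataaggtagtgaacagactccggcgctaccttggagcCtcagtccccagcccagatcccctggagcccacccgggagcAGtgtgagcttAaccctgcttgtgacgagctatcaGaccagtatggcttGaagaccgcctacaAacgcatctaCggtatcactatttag
Bglap3: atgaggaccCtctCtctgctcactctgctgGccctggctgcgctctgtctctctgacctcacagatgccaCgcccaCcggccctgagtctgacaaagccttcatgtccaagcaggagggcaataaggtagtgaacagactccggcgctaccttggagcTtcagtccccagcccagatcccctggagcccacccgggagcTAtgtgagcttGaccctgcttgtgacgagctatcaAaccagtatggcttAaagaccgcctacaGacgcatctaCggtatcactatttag
Each coding sequence is 288 bases long. *Bglap* and *Bglap2* differed at 4 positions (98.6% identity) and held an identical stretch of 241 bases. *Bglap3* differed from *Bglap* at 13 positions (95.5% identity) and from *Bglap2* at 9 (96.9%). The reads were 50 bases long, and of the 239 windows of 50 bases in the coding sequence, 192 were identical between *Bglap* and *Bglap2*, 32 between *Bglap* and *Bglap3*, and 53 between *Bglap2* and *Bglap3*. Over the whole transcripts, 88.2% of the 50-base windows of *Bglap2*, 56.6% of those of *Bglap* and 11.5% of those of *Bglap3* were found in another gene as well. The 3 rows are therefore uncertain as separate measurements, and their sum is given beside them.

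Sequence before the transcription start was available for 7 of the 10 genes in the RefSeq table (GRCm38.p6). *Smpd3*, *Slc20a2* and *Bglap2* were not matched. The 250 bases upstream of the start are shown for the 2 osteocalcin genes matched, because their levels were far apart, and for *Alpl*, *Phospho1* and *Ifitm5*, because the levels of these 3 were correlated across the libraries. The windows, 5′ to 3′ on the strand of the gene, lie at chr3:88384467-88384716 (minus strand) for *Bglap*, chr3:88372742-88372991 (minus) for *Bglap3*, chr4:137796385-137796634 (minus) for *Alpl*, chr11:95824250-95824499 (plus) for *Phospho1* and chr7:140950244-140950493 (minus) for *Ifitm5*. Capitals mark matches, on either strand, to 4 short motifs chosen after the sequences had been read: ACCACA, the core bound by RUNX factors, GGGCGG, the GC box, CAATTA, a homeodomain-type motif, and TATAAA.
Bglap: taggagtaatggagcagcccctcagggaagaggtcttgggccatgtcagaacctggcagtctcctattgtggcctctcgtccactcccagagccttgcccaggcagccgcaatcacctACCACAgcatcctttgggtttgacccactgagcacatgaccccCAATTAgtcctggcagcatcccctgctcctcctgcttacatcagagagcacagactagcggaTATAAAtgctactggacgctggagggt
Bglap3: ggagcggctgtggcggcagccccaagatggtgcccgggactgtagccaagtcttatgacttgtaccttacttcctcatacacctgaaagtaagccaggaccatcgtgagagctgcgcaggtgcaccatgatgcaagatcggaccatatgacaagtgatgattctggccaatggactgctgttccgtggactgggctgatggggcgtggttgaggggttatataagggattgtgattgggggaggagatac
Alpl: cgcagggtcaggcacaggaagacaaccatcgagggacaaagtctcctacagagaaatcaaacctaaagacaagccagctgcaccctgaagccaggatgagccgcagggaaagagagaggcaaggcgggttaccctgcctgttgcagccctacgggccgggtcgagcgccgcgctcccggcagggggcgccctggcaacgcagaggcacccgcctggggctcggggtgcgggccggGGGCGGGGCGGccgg
Phospho1: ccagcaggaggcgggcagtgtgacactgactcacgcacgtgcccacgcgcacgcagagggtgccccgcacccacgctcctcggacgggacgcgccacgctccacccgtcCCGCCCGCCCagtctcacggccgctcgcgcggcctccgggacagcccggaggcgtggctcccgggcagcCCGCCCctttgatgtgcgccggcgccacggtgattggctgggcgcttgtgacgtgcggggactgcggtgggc
Ifitm5: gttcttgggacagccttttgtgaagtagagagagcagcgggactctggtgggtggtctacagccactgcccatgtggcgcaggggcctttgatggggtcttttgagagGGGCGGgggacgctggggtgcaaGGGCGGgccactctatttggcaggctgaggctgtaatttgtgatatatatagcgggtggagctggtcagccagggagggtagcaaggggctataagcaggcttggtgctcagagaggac
The *Bglap* window held 1 ACCACA beginning at -132 from the start, 1 CAATTA at -89 and 1 TATAAA at -27, and no GGGCGG. The *Bglap3* window held none of the 4 exactly, but it held TATATAA, a near variant of TATAAA that was not searched for. The coding sequence begins at chr3:88369536 in *Bglap3* and at chr3:88384415 in *Bglap*. The *Bglap3* window thus lies further from its coding sequence than the *Bglap* window does, and the windows are not at like positions. The table lists 3 starts for *Bglap3* and 2 for *Alpl*, and only the window at the start nearest to the outer end of the annotated gene was searched, so motifs before the other starts are not covered. The *Alpl* and *Ifitm5* windows each held 2 GC boxes and the *Phospho1* window 3, of which adjacent matches overlap in *Alpl* and *Phospho1*, and none of these windows held the other 3 motifs. Among all 32851 windows of the same length in the table, 14.05% held ACCACA, 32.7% GGGCGG, 7.17% CAATTA and 12.4% TATAAA on either strand. A match is a description of letters and not a measured binding site.

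The genes spanned more than 2 orders of magnitude in level per length. Divided by the union of their exons (GENCODE M21), the mean over the 10 libraries was 346 ± 88.8 CPM per kb (SD, n = 10) for *Bglap*, 275 ± 69.3 for *Bglap2*, 110 ± 18.9 for *Alpl* and 96.6 ± 15.1 for *Phospho1*. *Ifitm5* followed at 65.5 ± 11.02, *Smpd3* at 40.4 ± 7.11 and *Enpp1* at 15.5 ± 3.04 CPM per kb. The phosphate transporters were lower, at 7.90 ± 0.92 for *Slc20a2* and 2.79 ± 0.24 for *Slc20a1*, and *Bglap3* was lowest at 1.40 ± 0.46 CPM per kb. Neighbours in this order kept their places in each of the 10 libraries when compared within a library, although between libraries the ranges overlapped for *Bglap* and *Bglap2*, *Alpl* and *Phospho1*, *Phospho1* and *Ifitm5*, and *Ifitm5* and *Smpd3*. The vesicle phosphatase thus stood just below the extracellular one, and of the osteocalcin genes *Bglap3* was far below the other 2. The place of *Phospho1* depends on how reads were assigned, since 85.4% of its 50-base transcript windows were found in another gene as well. The union of exons overstates the length of a gene with long, rarely used exons, and *Bglap3* has a union of 2629 bases against 618 for *Bglap*.

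**Figure D1:**
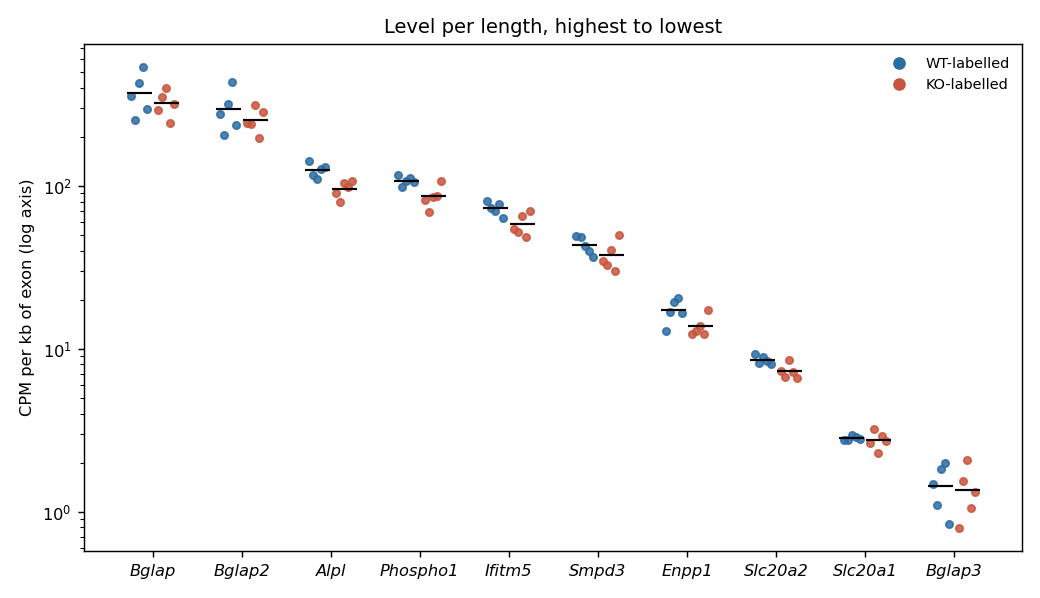
Level per length of the 10 genes in CPM per kb of exon (log axis), ordered from highest to lowest, with 1 point per library and horizontal lines at the mean of 5 libraries. *Bglap* and *Bglap2* were highest, and *Slc20a1* and *Bglap3* lowest, in both groups.

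Across the comparison of KO-labelled with WT-labelled libraries, all 10 genes had a fitted fold change below 0, with a median log2 fold change of -0.23 against 0.00 over all genes tested. None of the 10 passed an adjusted p-value of 0.05 in edgeR's quasi-likelihood test, where 0.0184% of all genes tested (3 of 16267) did. Those 3 were *Fgfr2* and *Scube2*, which rose, and *H2az2*, which fell, and the last pair was named after its values were seen. At an unadjusted p-value under 0.05, 5 of the 10 were lower (*Alpl*, *Phospho1*, *Enpp1*, *Slc20a2* and *Ifitm5*), where 3.82% of all genes tested were lower at that level. The groups did not overlap for 1 of the 10, *Alpl*, where 0.701% of all genes tested had every KO-labelled library below every WT-labelled one. DESeq2's Wald test called 1 of the 10 at an adjusted p-value of 0.05, again *Alpl*, where it called 0.596% of all genes tested, and limma voom called 0. In whole tissue, a lower level can come from fewer cells of a type or from less RNA in each cell, and these cannot be told apart. Every fold change below is the KO-labelled over the WT-labelled group.

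**Figure D2:**
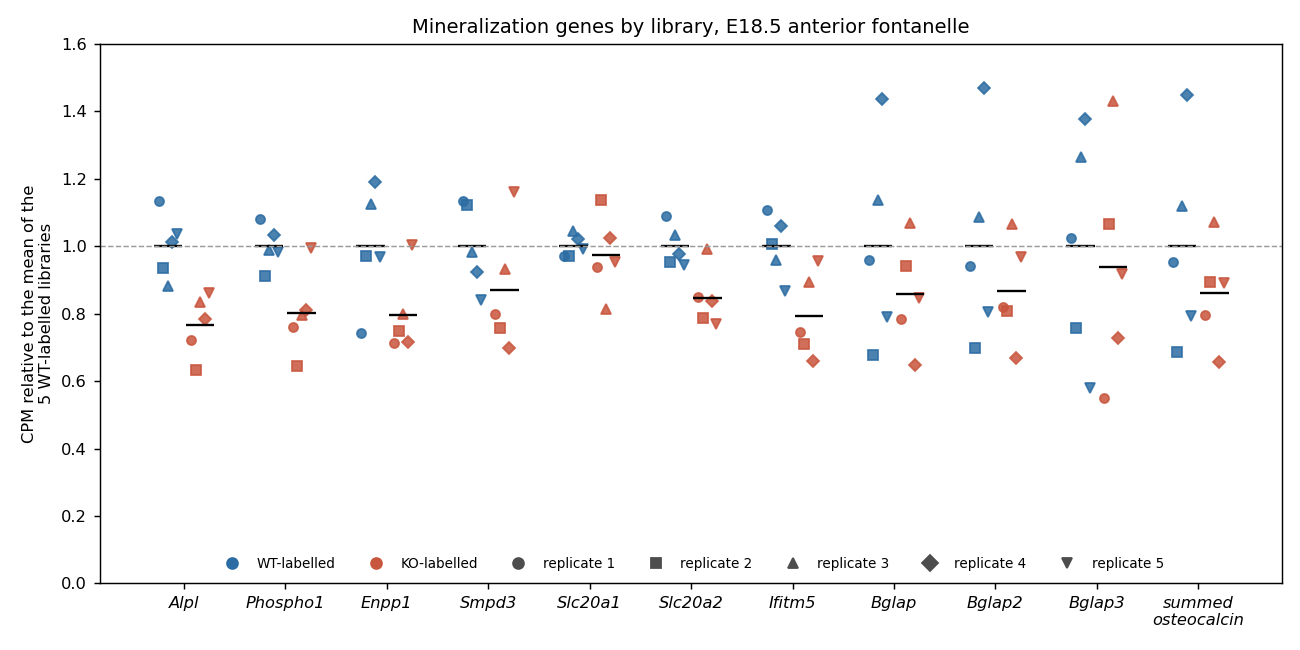
CPM of each gene and of the summed osteocalcin count in each library, divided by the mean of the 5 WT-labelled libraries, with horizontal lines at group means. All 5 KO-labelled libraries lie below the WT-labelled ones for *Alpl*, while the groups overlap for the other genes.

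*Alpl*, the phosphatase that degrades pyrophosphate (chr4:137741733-137796384, minus strand, GRCm38), had the largest fold change of the 10 with all libraries, although *Enpp1* was further from 0 without WT-labelled replicate 1 (-0.41 against -0.33) and *Ifitm5* without WT-labelled replicate 5 (-0.37 against -0.36). Its levels in WT-labelled replicates 1 to 5 were 571, 471, 444, 510 and 522 CPM, and in KO-labelled replicates 1 to 5 they were 363, 320, 421, 395 and 433 CPM. The highest KO-labelled library was thus below the lowest WT-labelled one, and KO-labelled replicate 2 was the lowest of all. The mean was 504 ± 48.9 CPM (SD, n = 5) in WT-labelled and 386 ± 46.0 CPM (n = 5) in KO-labelled libraries, 23.3% lower. Its log2 fold change was -0.38 (SE 0.09, unadjusted p = 0.00175, adjusted p = 0.336 by edgeR), and the gene stood at rank 83 of 16267 by p-value. DESeq2's adjusted p was 0.0176, so the call depended on the tool. On simulated counts DESeq2 made more false calls than its nominal rate. No 50-base window of its transcripts occurred in another gene, and 7827 to 15416 counts per library stood behind these values.

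*Enpp1* (chr10:24637914-24712159, minus strand), whose enzyme makes the pyrophosphate that alkaline phosphatase removes, was measured at 131, 171, 198, 210 and 171 CPM in WT-labelled and at 126, 132, 141, 126 and 177 CPM in KO-labelled libraries. WT-labelled replicate 1 lay among the KO-labelled values and KO-labelled replicate 5 among the WT-labelled ones. The log2 fold change was -0.33 (SE 0.13, unadjusted p = 0.0269, adjusted p = 0.634 by edgeR). The level of *Enpp1* relative to *Alpl* in the same library was 0.347 in WT-labelled and 0.363 in KO-labelled libraries (geometric means), a log2 difference of 0.06 (exact two-sided permutation p = 0.810, adjusted p = 0.810 over the 6 ratios tested). The opposed enzymes of pyrophosphate turnover thus both had fold changes below 0, and a difference in the ratio between them was not detectable. Without WT-labelled replicate 1 the difference of this ratio was -0.09, with the sign turned.

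*Phospho1* (chr11:95824499-95832140, plus strand), the phosphocholine phosphatase of matrix vesicles, stood at 235, 199, 216, 225 and 214 CPM in WT-labelled and at 166, 141, 173, 176 and 216 CPM in KO-labelled libraries. KO-labelled replicate 5 lay within the WT-labelled range and the other 4 KO-labelled libraries lay below it. Its fitted log2 fold change was -0.32 (SE 0.10, unadjusted p = 0.00713, adjusted p = 0.471 by edgeR). Of its 50-base transcript windows, 85.4% were shared with another gene: exons of *Zfp652*, a zinc finger gene, overlap it on the same strand and those of *Abi3* on the opposite strand. *Zfp652* was measured at 81.2 to 112 CPM and *Abi3* at 7.41 to 11.6 CPM, and their log2 fold changes were 0.12 (SE 0.09) and 0.02 (SE 0.12). With *Phospho1* and *Zfp652* counted as 1 gene, the log2 fold change was -0.17 (SE 0.08, adjusted p = 0.664 by edgeR), smaller than for *Phospho1* alone.

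*Smpd3* (chr8:106252548-106337988, minus strand), the neutral sphingomyelinase gene whose loss in mice impairs skeletal mineralization, was measured at 257, 254, 223, 209 and 190 CPM in WT-labelled and at 181, 171, 211, 158 and 263 CPM in KO-labelled libraries. KO-labelled replicate 5 was the highest of all 10, while 3 KO-labelled libraries lay below all WT-labelled ones. The estimate of the log2 fold change was -0.20 (SE 0.14, adjusted p = 0.752 by edgeR), and it was -0.33 without KO-labelled replicate 5 and -0.12 without KO-labelled replicate 4. Relative to *Phospho1*, *Smpd3* was at 1.03 in WT-labelled and 1.12 in KO-labelled libraries, a log2 difference of 0.11 (exact permutation p = 0.381, adjusted p = 0.631). *Phospho1* relative to *Alpl* was at 0.433 and 0.450 (exact permutation p = 0.421, adjusted p = 0.631).

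The genes of the phosphate transporters are *Slc20a2* (chr8:22476788-22569612, plus strand) and *Slc20a1* (chr2:129198764-129211616, plus strand). *Slc20a2* (PiT-2) was at 58.0, 50.8, 55.0, 51.9 and 50.3 CPM in WT-labelled and at 45.2, 41.9, 52.8, 44.6 and 40.9 CPM in KO-labelled libraries. Only KO-labelled replicate 3 reached the WT-labelled range. The fitted log2 fold change was -0.24 (SE 0.07, unadjusted p = 0.00703, adjusted p = 0.468 by edgeR). *Slc20a1* (PiT-1) was at 15.3, 15.3, 16.5, 16.1 and 15.6 CPM in WT-labelled and at 14.8, 17.97, 12.8, 16.2 and 15.1 CPM in KO-labelled libraries. The KO-labelled libraries lay on both sides of the narrow WT-labelled range, and the coefficient of variation was 3.21% in WT-labelled and 12.3% in KO-labelled libraries. The log2 fold change of *Slc20a1* was -0.04 (SE 0.08, adjusted p = 0.945 by edgeR), and it was 0.03 without KO-labelled replicate 3.

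The difference between the transporters was tested as their ratio. *Slc20a1* relative to *Slc20a2* was 0.297 in WT-labelled and 0.341 in KO-labelled libraries, a log2 difference of 0.20 (exact permutation p = 0.230, adjusted p = 0.631 over the 6 ratios). Without KO-labelled replicate 3, which had the lowest ratio of all, the difference was 0.32 with an adjusted p of 0.0476 by the same exact test. The groups therefore did not differ detectably in this ratio when all libraries were used. *Slc20a1* rests on 300 to 452 counts per library and *Slc20a2* on 926 to 1564.

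*Ifitm5* (chr7:140948958-140950291, minus strand), also known as the bone-restricted Ifitm-like gene, was at 61.8, 56.3, 53.5, 59.3 and 48.4 CPM in WT-labelled and at 41.7, 39.7, 49.9, 36.9 and 53.5 CPM in KO-labelled libraries. KO-labelled replicates 3 and 5 lay within the WT-labelled range. Its log2 fold change was -0.33 (SE 0.11, unadjusted p = 0.00837, adjusted p = 0.502 by edgeR). *Ifitm5* relative to *Alpl* was 0.111 in WT-labelled and 0.114 in KO-labelled libraries (exact permutation p = 0.603, adjusted p = 0.724). The log2 difference of this ratio was 0.04, and it was -0.02, with the sign turned, without WT-labelled replicate 5 and 0.12 without KO-labelled replicate 4. Of its 50-base windows, 25.3% were also found in *Gm45717*, an overlapping gene model on the same strand.

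The osteocalcin genes varied more between libraries of one group than between the groups. *Bglap*, the main osteocalcin gene, was at 221, 156, 262, 331 and 182 CPM in WT-labelled and at 181, 217, 246, 149 and 195 CPM in KO-labelled libraries. *Bglap2* was at 130, 96.9, 150, 204 and 112 CPM and at 114, 112, 148, 92.5 and 134 CPM in the same order. Both genes were highest in WT-labelled replicate 4 and lowest in KO-labelled replicate 4, and most KO-labelled libraries lay inside the WT-labelled range. The log2 fold changes were -0.22 (SE 0.19, adjusted p = 0.827) and -0.21 (SE 0.19, adjusted p = 0.836 by edgeR), and without WT-labelled replicate 4 they were -0.055 and -0.028.

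*Bglap3*, the osteocalcin-related gene that is known mainly from kidney, was at 3.89, 2.88, 4.80, 5.23 and 2.20 CPM in WT-labelled and at 2.09, 4.05, 5.44, 2.77 and 3.49 CPM in KO-labelled libraries. It rests on 45 to 128 counts per library and the groups covered nearly the same range. The log2 fold change was -0.09 (SE 0.28, adjusted p = 0.963 by edgeR), and it turned to 0.02, 0.05 and 0.06 without WT-labelled replicate 3, WT-labelled replicate 4 and KO-labelled replicate 1. It made up 0.71 to 1.36% of the summed osteocalcin count, against 58.6 to 65.1% for *Bglap* and 33.7 to 40.4% for *Bglap2*. The share of *Bglap* was 61.8 ± 0.74% (SD, n = 5) in WT-labelled and 61.5 ± 2.34% (n = 5) in KO-labelled libraries (exact permutation p = 0.778).

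**Figure D3:**
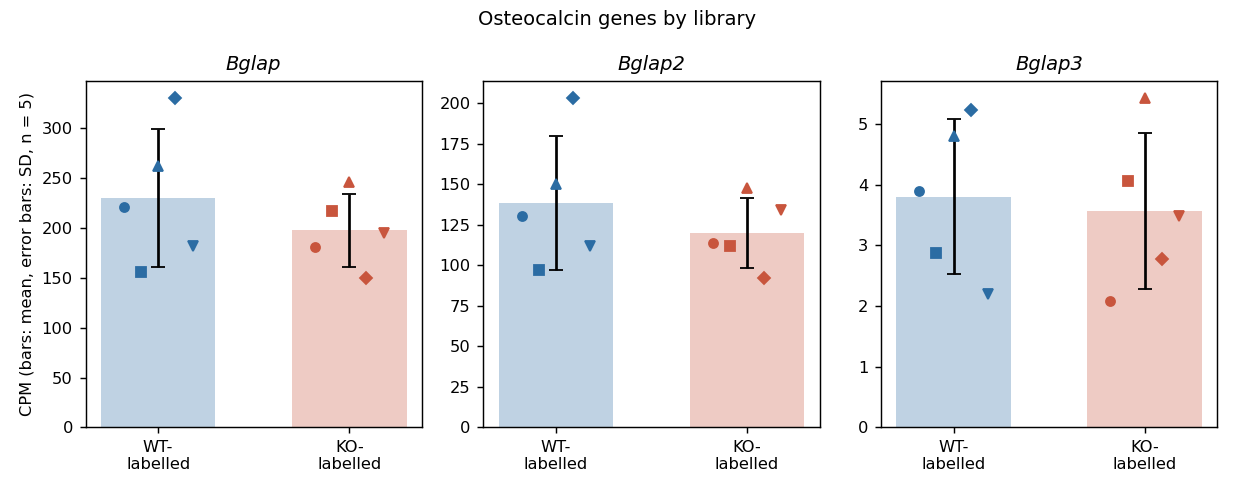
CPM of *Bglap*, *Bglap2* and *Bglap3* by group, with bars at the mean, error bars of 1 SD (n = 5) and 1 symbol shape per replicate number. The 5 KO-labelled values overlap the WT-labelled ones for each gene, and WT-labelled replicate 4 is highest for *Bglap* and *Bglap2*.

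A sum over the 3 genes does not depend on how reads were split between them. It does depend on whether reads matching several of them were dropped or counted more than once, which is not known here. Summed osteocalcin was at 373 ± 112 CPM (SD, n = 5) in WT-labelled and 321 ± 56.7 CPM (n = 5) in KO-labelled libraries. Its fitted log2 fold change was -0.21 (SE 0.19, adjusted p = 0.830 by edgeR), and it was -0.04 without WT-labelled replicate 4. Relative to *Alpl*, the sum was 0.718 in WT-labelled and 0.826 in KO-labelled libraries (exact permutation p = 0.421, adjusted p = 0.631), and the log2 difference ran from 0.10 without WT-labelled replicate 2 to 0.34 without WT-labelled replicate 4. The coefficient of variation of the sum was 29.9% in WT-labelled libraries, compared with 9.71% for *Alpl* and 6.26% for *Phospho1*. In KO-labelled libraries the values lay closer together, at 17.6% for the sum, 11.9% for *Alpl* and 15.7% for *Phospho1*.

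**Figure D4:**
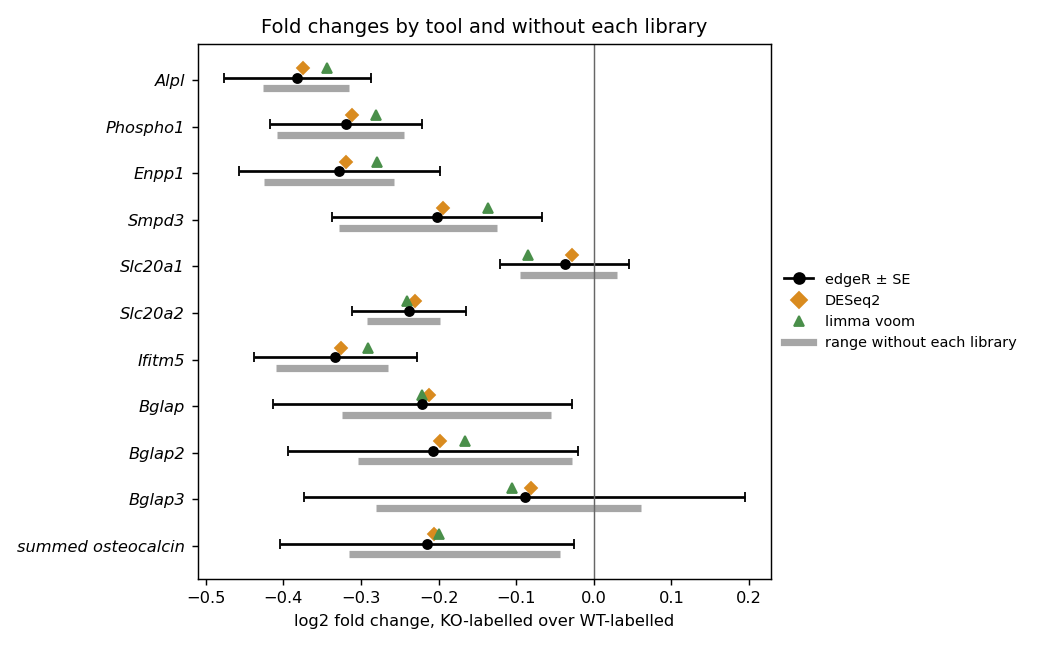
Log2 fold change of each gene and of the summed osteocalcin count, with edgeR values and their SE (black), DESeq2 (orange), limma voom (green) and the range when each library in turn was left out (grey). The grey ranges of *Slc20a1* and *Bglap3* cross 0, and all other values lie below 0.

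The genes were next set against osteoblast genes measured in the same libraries. All 6 reference genes had fold changes below 0, and those of 5 ran from -0.05 (SE 0.15) for the collagen gene *Col1a1*, -0.09 (SE 0.10) for *Runx2*, -0.15 (SE 0.08) for *Dlx5* and -0.24 (SE 0.08) for *Sp7* to -0.58 (SE 0.15) for bone sialoprotein, *Ibsp*, and none passed the adjusted threshold in edgeR, while DESeq2 called *Ibsp* (adjusted p = 0.0149). Relative to the mean log2 level of these 6 genes, *Alpl* was lower by a log2 difference of -0.18 in KO-labelled libraries (exact permutation p = 0.0397) and *Phospho1* by -0.13 (p = 0.0476), and for both the adjusted p over the 11 tests was 0.262. *Ifitm5* differed by -0.14 (exact permutation p = 0.198), *Enpp1* by -0.12 (p = 0.397) and *Slc20a2* by -0.04 (p = 0.802). *Smpd3* differed by -0.01, the osteocalcin sum by 0.02 and *Slc20a1* by 0.16. When 1 library was left out, the sign turned for *Smpd3* (0.03 without WT-labelled replicate 1 or 2, 0.004 without KO-labelled replicate 1 and 0.06 without KO-labelled replicate 4) and for the osteocalcin sum (-0.10 and -0.06 without WT-labelled replicates 2 and 5, -0.04 and -0.06 without KO-labelled replicates 2 and 3), and *Slc20a1* was at 0.05 without KO-labelled replicate 2. The sign of *Slc20a2* turned as well, to 0.06 without KO-labelled replicate 5. A single member could not have passed here, since the smallest adjusted p that 1 difference alone can reach over 11 such tests is 0.0873. Relative to *Sp7* and *Runx2* alone the difference of *Alpl* was -0.22 (adjusted p = 0.291, exact permutation test).

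Across all 10 libraries, the highest correlations between members were those of *Bglap* with *Bglap2* and of *Alpl* with *Phospho1*. *Alpl* and *Phospho1* had a Pearson r of 0.92, and *Ifitm5* had an r of 0.81 with *Alpl*, 0.82 with *Phospho1* and 0.88 with *Smpd3*. *Slc20a2* had an r of 0.73 with *Alpl* and 0.66 with *Ifitm5*, and *Enpp1* had an r of 0.63 with *Phospho1* and 0.62 with *Ifitm5*. *Bglap* and *Bglap2* had an r of 0.95, genes that share most of their sequence, and *Alpl* had an r of 0.26 with the osteocalcin sum. *Slc20a1* had r values from -0.32 to 0.13 with the others. These are descriptions over 10 libraries of 2 groups that share scaling factors, and the difference between the groups is part of each r.

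**Figure D5:**
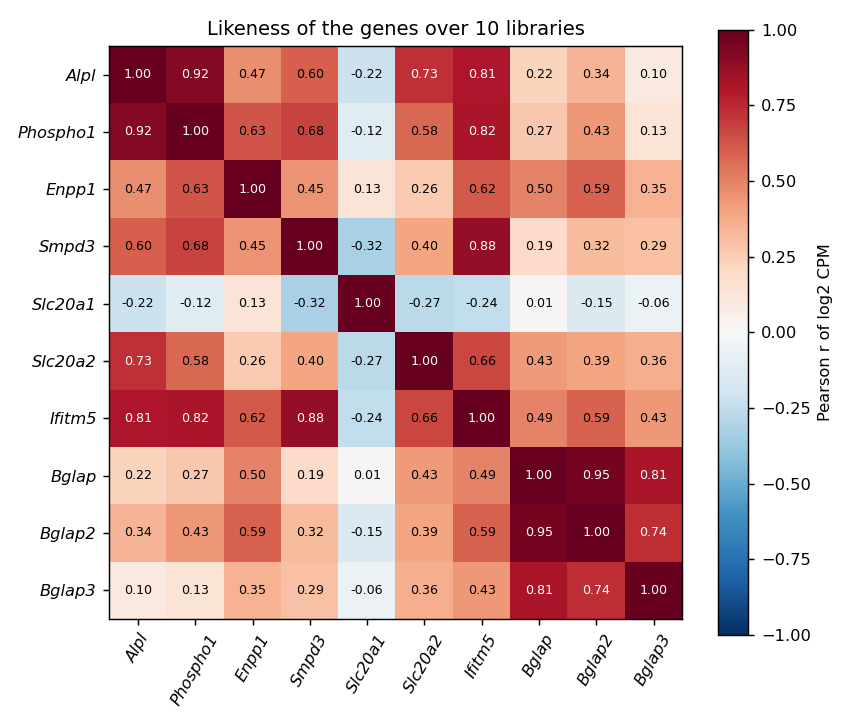
Pearson r of log2 CPM between each pair of the 10 genes over the 10 libraries (red positive, blue negative, value printed in each cell). *Alpl* with *Phospho1* (0.92) and *Bglap* with *Bglap2* (0.95) have the highest values, while *Slc20a1* ranges from -0.32 to 0.13 with the rest.

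For each member, the 3 other genes with the highest r over the 10 libraries were taken from the 14468 genes at 1 CPM or more. For *Alpl* they were *Entpd3*, an ectonucleotidase gene (0.97), *Prox2* (0.95) and *Ibsp*, the bone sialoprotein gene (0.95). For *Phospho1* they were *Col24a1* (0.96), *Entpd3* (0.96) and *Nab2* (0.95). *Enpp1* was closest to *Adcy3* (0.98), *Ank*, which encodes a membrane protein needed for pyrophosphate export (0.97), and *Tcirg1* (0.95). *Smpd3* was closest to *Trpv4* (0.94), *P3h4* (0.93) and *Sgms2*, a sphingomyelin synthase gene (0.93). For *Ifitm5* the genes were *Ssr2* (0.97), *Xbp1* (0.96) and *Tmed10* (0.96), for *Slc20a1* *Septin5* (0.95), *Syt6* (0.94) and *Supt20* (0.94), and for *Slc20a2* *Clptm1* (0.96), *Pla2g4a* (0.94) and *Hgsnat* (0.92). Among the osteocalcin genes, *Bglap* had *Gm28043* (0.96), *Fbxo28* (0.93) and *Rtn4ip1* (0.90), *Bglap2* had *Fbxo28* (0.92), *Capza1-ps1* (0.92) and *D16Ertd472e* (0.91), and *Bglap3* had *Bet1l* (0.94), *Manbal* (0.93) and *Cdk2ap1* (0.93). This ranking is a description over 10 libraries and carries no test.

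Other genes of the same pathways were described by lists. Of 13 tested genes of pyrophosphate and phosphate handling, 9 were lower and 4 higher, with a median log2 fold change of -0.10. At an unadjusted p under 0.05, which 7.49% of all genes tested reached in either direction, *Phex*, *Ank*, *Enpp6* and *Nt5e* were lower and *Abcc6* was higher, these and the genes so named below having been picked out after their values were seen. The 3 with the highest mean CPM were *Phex*, the gene mutated in X-linked hypophosphatemia (228 ± 42.0 against 173 CPM, log2 fold change -0.40), *Ank* (205 ± 36.0 against 165 CPM, -0.31) and the mitochondrial phosphate carrier gene *Slc25a3* (144 ± 7.70 against 139 CPM, -0.05), with the SD of 5 WT-labelled libraries. Of 10 genes of phosphocholine and sphingomyelin supply, 6 were lower and 4 higher, with a median of -0.03, and *Smpd1* had an unadjusted p under 0.05. *Sgms2* was at 304 ± 19.6 against 266 CPM, the phosphatidylcholine synthesis gene *Pcyt1a* at 42.6 ± 1.55 against 41.9 CPM, and the acid sphingomyelinase gene *Smpd1* at 40.9 ± 0.89 against 36.9 CPM.

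Genes that modify or accompany osteocalcin stood near their control levels. Of 6 genes of the vitamin K cycle and its substrates, 4 were lower and 2 higher, with a median log2 fold change of -0.05. The mineral inhibitor gene *Mgp* was at 134 ± 11.1 CPM in WT-labelled (SD, n = 5) and 129 CPM in KO-labelled libraries, *Gas6* at 116 ± 9.04 and 127 CPM, and the epoxide reductase gene *Vkorc1* at 61.2 ± 4.37 and 57.1 CPM. Of 8 tested mineral inhibitor and vesicle protein genes, *Mgp* again among them, 7 were lower and 1 higher, with a median of -0.11, and the lower genes *Anxa1*, *Anxa5* and *Fam20c* had an unadjusted p under 0.05. The matrix protein gene *Sparc* was at 8446 ± 777 and 7825 CPM, and the annexin genes *Anxa2* and *Anxa6* at 274 ± 13.3 and 256 CPM and at 176 ± 10.2 and 177 CPM. Of the 5 other genes of the IFITM family tested, 3 were lower and 2 higher, with a median of -0.12, and *Ifitm6*, a higher one, had an unadjusted p under 0.05 (1.19 ± 0.48 against 2.05 CPM). *Ifitm2* was at 161 ± 6.63 and 148 CPM, *Ifitm3* at 46.2 ± 3.58 and 41.9 CPM and *Ifitm1* at 9.59 ± 1.85 and 7.78 CPM. At an adjusted threshold of 0.05, edgeR, DESeq2 and limma voom each called 0 of the genes of these 5 lists.

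Markers of the cell types in the tissue were set beside these genes. All 14 osteoblast markers tested had fold changes below 0, with a median of -0.22, and 8 had an unadjusted p under 0.05. Their summed level was 106748 to 125554 CPM in WT-labelled and 88789 to 128057 CPM in KO-labelled libraries. Most of this sum is collagen, with WT-labelled means of 66247 CPM for *Col1a1* and 37468 CPM for *Col1a2* and log2 fold changes of -0.05 and -0.02, so it says little of the other markers, of which *Mepe* was at -0.83, *Ibsp* and *Dmp1* at -0.58 and *Spp1* at -0.38 (unadjusted p = 0.00488, 0.00204, 0.00135 and 0.00634, none past the adjusted threshold in edgeR). All 4 markers of the fontanelle connective tissue (*Scx*, *Tnmd*, *Mkx* and *Matn4*) had fold changes above 0, each at an unadjusted p-value under 0.05, with a median of 0.47. Their summed level was 148 to 179 CPM in WT-labelled and 199 to 278 CPM in KO-labelled libraries, without overlap. Of 8 osteoclast markers 7 were lower (median -0.16, sums of 2327 to 3737 and 2594 to 2907 CPM), with an unadjusted p under 0.05 for *Calcr* and *Itgb3*, both lower, and of 7 tested chondrocyte markers 6 were higher (median 0.21, sums of 1307 to 1634 and 1207 to 1622 CPM), with an unadjusted p under 0.05 for *Col2a1* and *Matn3*, both higher. All 8 neuron markers were higher (median 0.87), with sums of 58.3 to 151 and 64.1 to 442 CPM, and *Nefl* and *Nefm* had an unadjusted p under 0.05. Of all marker genes, edgeR and limma voom called 0 at an adjusted threshold of 0.05, while DESeq2 called 3 osteoblast, 2 fontanelle connective tissue and 1 chondrocyte marker. The parts that these cell types had in the levels of *Alpl*, *Phospho1* and the other members were not tested.

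The remaining marker lists showed no gene at an unadjusted p-value under 0.05 in edgeR, and none was called by edgeR, DESeq2 or limma voom. The median log2 fold change was -0.22 for 7 skeletal muscle markers, 0.02 for 6 epidermis markers, -0.18 for 6 erythroid markers, 0.00 for 6 endothelial markers and -0.14 for 6 macrophage markers. Their summed levels overlapped between the groups, at 17.0 to 728 and 17.2 to 717 CPM for muscle, 6.91 to 14.8 and 6.12 to 11.7 CPM for epidermis, 989 to 2519 and 900 to 1599 CPM for erythroid cells, 452 to 580 and 474 to 580 CPM for endothelium, and 393 to 530 and 349 to 443 CPM for macrophages. Without the 3 libraries highest in neuron or muscle markers, a choice made after the sums were seen, leaving 4 WT-labelled and 3 KO-labelled libraries, all 10 members were again lower, with a median of -0.24, edgeR called 0 of them and 6 of all 16511 genes (0.0363%), and 3 (*Alpl*, *Phospho1* and *Slc20a2*) had an unadjusted p under 0.05, as did 7.36% of all genes. In that fit the log2 fold change of *Alpl* was -0.29 (SE 0.09), that of *Bglap* was -0.33 (SE 0.21) and that of *Smpd3* was -0.05 (SE 0.16).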

How the data were processed

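RNA of 10 AF regions was sequenced from stranded libraries as single reads of 50 bases. The submitters' notes name mm10 and Partek, while the aligner, counter and strand setting are not given in the sources used here. The authors deposited 1 table of unscaled estimated counts per gene, of which 66.4% were exactly whole as deposited. These expected counts were rounded to whole numbers, where the design had assumed whole counts. Genes were filtered by edgeR 4.0.16's expression filter (16267 kept, 6813 left out), normalized by TMM and tested by its quasi-likelihood test without covariates (R 4.3.3), with Benjamini-Hochberg adjustment over all genes tested and a threshold of 0.05. CPM are TMM-scaled, and log2 CPM used a prior count of 0.5. Ratios and reference-relative levels were compared by two-sided exact permutation tests over 252 groupings, whose smallest p is 0.00794. DESeq2 1.42.0, limma 3.58.1 (voom), other scalings and filters, and leaving out libraries were alternatives. Scripts were tested on simulated data, on which DESeq2 made more false calls than its nominal rate. Of 22533 symbols shared with GENCODE M21 (GRCm38), 22274 had the same start, with an end 1 base before the table's stop.

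The genes and lists were chosen with earlier results of these data known. Named were all 10 members, *Fgfr2*, the 3 genes of highest mean CPM and any called gene of each pathway list, the reference genes, and for each member the 3 genes of highest r. The symbols *Ankh*, *Slc34a1*, *Slc34a2*, *Slc34a3*, *Ahsg* and *Ifitm7* were matched to no row, while the symbol *Ank* was matched. List genes of low count were not tested. Values of 2 list genes, 1 of them among the 6 reference genes, are not reported here. All replicate pairs differed by more than sampling noise.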

Additional observations from a re-analysis of the deposited data

Results flagged for a closer look

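In 2 of the 56 groups of 5 libraries checked for a library far from the others, 1 library stood apart, where about 1 in 20 groups is flagged by chance. The log2 ratio of *Ifitm5* to *Alpl* was -3.42 in KO-labelled replicate 4, against -3.12 to -3.01 in the other 4 KO-labelled libraries. The log2 ratio of *Slc20a1* to *Slc20a2* was -1.92 in WT-labelled replicate 1, against -1.74 to -1.68 in the other 4 WT-labelled libraries.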

How the results depend on the processing

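The median log2 fold change of the 10 genes stayed below 0 in every alternative run, from -0.31 without WT-labelled replicate 2 to -0.18 without KO-labelled replicate 4. edgeR called none of the 10 under any alternative scaling, filter, covariate or left-out library. An unadjusted p under 0.05 was reached by 5 in the reported fit (7.49% of all genes tested) and by 4 to 6 under these alternatives. Of all genes, 855 of 16476 reached it without WT-labelled replicate 4 and 1370 of 16426 without WT-labelled replicate 2. The count of 6 came without KO-labelled replicate 5 and with library size only, where 710 of the 968 genes that reached it were lower. DESeq2's Wald test called 1 of them and 97 of all genes, against 3 by edgeR. The count over all genes was 1 with library size only, with *Xist* as a covariate and with the replicate number as a block, and 1 to 6 when each library was left out. The call of *Fgfr2* was lost with library size only (adjusted p = 0.152), with no filter (0.0557), with *Xist* as a covariate (0.0625) and with the replicate block (0.427). Replicate numbers did not pair the libraries (correlations of deviations from -0.21 to 0.14), and with the replicate block the median was -0.23, 0 of the 10 were called and the log2 fold change of *Alpl* was -0.39. Values when each library was left out ranged from -0.095 to 0.030 for *Slc20a1*, -0.281 to 0.061 for *Bglap3*, -0.316 to -0.044 for the osteocalcin sum, -0.085 to 0.154 for the ratio of *Enpp1* to *Alpl*, -0.022 to 0.116 for *Ifitm5* to *Alpl*, 0.016 to 0.095 for *Phospho1* to *Alpl*, 0.101 (without WT-labelled replicate 2) to 0.342 (without WT-labelled replicate 4) for the osteocalcin sum to *Alpl*, 0.059 to 0.196 for *Smpd3* to *Phospho1* and 0.112 to 0.317 for *Slc20a1* to *Slc20a2*. Relative to the reference genes the ranges were -0.218 to -0.138 for *Alpl*, -0.156 to -0.099 for *Phospho1*, -0.223 (without WT-labelled replicate 1) to -0.043 (without WT-labelled replicate 4) for *Enpp1*, -0.199 to -0.080 for *Ifitm5*, 0.052 (without KO-labelled replicate 2) to 0.225 for *Slc20a1*, -0.083 to 0.056 for *Smpd3*, -0.094 to 0.058 for *Slc20a2*, -0.111 to 0.164 for *Bglap*, -0.087 to 0.184 for *Bglap2*, -0.080 to 0.274 for *Bglap3* and -0.099 to 0.174 for the osteocalcin sum. With *Sp7* and *Runx2* as the reference, *Bglap* was at -0.025, *Bglap2* at -0.012 and the sum at -0.018, turned from small positive values. The causes were not tested. Library size alone moved the median of all genes to -0.04. At 45 to 128 counts per library, counting error adds to the spread of *Bglap3*.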
